A study of Rattus norvegicus with 16 samples.

Results

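Pseudogenes made up 90 of the 8671 genes in a table of RNAs recovered by RNA immunoprecipitation (RIP) from the rat spinal dorsal horn, the part of the spinal cord that receives pain signals from the body. A row was taken as a pseudogene when its annotated gene biotype contained that word. Of the 90, 28 were annotated as processed and 1 as transcribed processed pseudogenes, together called the processed class (29 genes). The other class (61 genes) held 59 rows annotated only as pseudogene and 2 unprocessed pseudogenes. The RIP compared 2 immunoprecipitated (IP) libraries with 2 input libraries (total RNA), all from wild-type rats with cancer-induced bone pain (CIBP). Peaks of N4-acetylcytidine (ac4C), an acetylated form of cytidine in RNA, came from 12 further libraries of the same tissue, as 1 list for each pair of IP and input: 3 lists for CIBP and 3 for wild-type normal rats, called controls. The labels describe the samples as biological replicates, but do not say whether a replicate was 1 rat or a pool, nor give age, sex, the tumour used or its duration. The CIBP lists themselves carry the abbreviation CFA, and the groups follow the labels. The labels describe the same ac4C immunoprecipitation kit for the RIP libraries and name no other antibody, so the target of the RIP antibody is unknown here.

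Pseudogenes are copies of genes that are held to have lost the ability to make the original protein. A processed pseudogene, or retrocopy, arises when a messenger RNA is copied back into DNA and inserted elsewhere, so it lacks introns. An unprocessed pseudogene arises by duplication of a gene and can keep its introns. Genes transcribed at a high level, such as those of ribosomal proteins and of energy metabolism, have many retrocopies. Because a young copy is nearly identical to its parent gene, short reads from the parent can be assigned to the copy, and the reverse. The sources do not say how reads that match several places were treated, so each value of a pseudogene below may hold reads from a near-identical gene, and so may each value of its parent.

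The annotation of some members differs between sources. Of the 90, 71 carried a clone-based name, which gives no parent gene or role. By symbol or synonym, 12 of the 90 were found in the RefSeq gene table of the later GRCr8 assembly, and 9 of these 12 are listed there as protein-coding. The 9 are Ubb, Fzd10, Sephs2, Ado, Gprin1, Zcchc18, Fam127b (listed as Rtl8a), LOC100361008 and AABR07038019.1 (listed as Lamtor1l1). The other 3, Arrb2-ps, AABR07071000.1 (Gabarapl3) and AABR07017110.1 (Tcea1l1), are pseudogenes there too. The word pseudogene therefore describes the annotation of the rn6 files, and for these 9 genes the 2 sources differ.

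The 4 RIP values of each gene were in RPKM, reads scaled by the length of the gene and the size of the library, and the reads and length of each gene were recovered from them as the smallest length that gives whole reads in all 4 libraries. A recovered length and its reads may therefore be too small by a whole factor, which would make the counting intervals too wide. Peak widths required a larger length in 3 members, and the 23 members without a peak had no such check. The library totals behind them were 13148742 and 12929865 reads in the IP and 13979452 and 15291907 reads in the input. The listed genes took 79.0% and 79.6% of the reads in the IP libraries, against 14.2% and 15.1% in the input libraries, and since RPKM divides by the total, each fold below includes that difference. The table held only genes with a deposited log2 fold of IP over input above 1 and at least 1 RPKM in each input library, so an IP above the input was a condition of entry and was not tested here. The median log2 fold in the authors' deposited table was 2.40 over all rows. The tissue check found rows for 5 of 5 inhibitory and 2 of 3 excitatory dorsal horn markers, 4 of 4 astrocyte, 5 of 5 oligodendrocyte and 3 of 3 microglia markers. Among markers of other tissues, 2 of 3 for sensory ganglion had a row and 1 of 2 for blood, Hbb, with a log2 fold of 2.85 in the authors' deposited table, but none of the 3 for muscle or the 3 for tumour and epithelium. Of the 4 general neuronal markers, Rbfox3 and Elavl4 had a row, while Snap25 and Syt1 did not pass the entry conditions or were not listed.

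Pseudogenes took a small and nearly constant part of the listed RNA. They held 30820 and 29483 reads in the IP libraries, which is 0.234% (exact 95% binomial interval 0.232% to 0.237%) and 0.228% (0.225% to 0.231%) of all reads. In the input libraries they held 6023 and 6958 reads, which is 0.0431% (0.0420% to 0.0442%) and 0.0455% (0.0444% to 0.0466%). As a share of the reads on listed genes alone, they took 0.297% and 0.286% in the IP libraries, against 0.304% and 0.302% in the input libraries. The share of the whole library was thus higher in both IP libraries, but the fold required of every row nearly fixes that. The share of the listed RNA was slightly lower in both. With 2 libraries a side no permutation test can reach 0.05, and none was run. All 90 pseudogenes had both IP values above both input values, as did 8669 of the 8671 rows (100% when rounded), which the entry conditions nearly fix.

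A single gene, Ubb, which encodes polyubiquitin, a chain of the small protein that tags others for degradation, held more of these reads than any other member. It had 695 and 678 RPKM in the IP libraries, against 137 and 155 RPKM in the input libraries. These values rest on 7525 and 7225 reads in the IP and 1578 and 1947 reads in the input. Its log2 fold per pair was 2.34 (95% counting interval 2.26 to 2.42) in pair 1 and 2.13 (2.06 to 2.21) in pair 2. The intervals do not overlap, so the pairs differed beyond counting error even though both lie near the median of all rows. Its false discovery rate (FDR) of 2.19e-119 was the smallest among the 90 in the authors' deposited table. Without Ubb, the pseudogenes held 23295 and 22258 reads in the IP libraries and 4445 and 5011 reads in the input libraries. Their share of the reads on listed genes was then 0.2243% and 0.2163% in the IP libraries, against 0.2245% and 0.2173% in the input libraries. The lower share of the listed RNA in the IP thus nearly vanished without this gene.

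**Figure D1:**
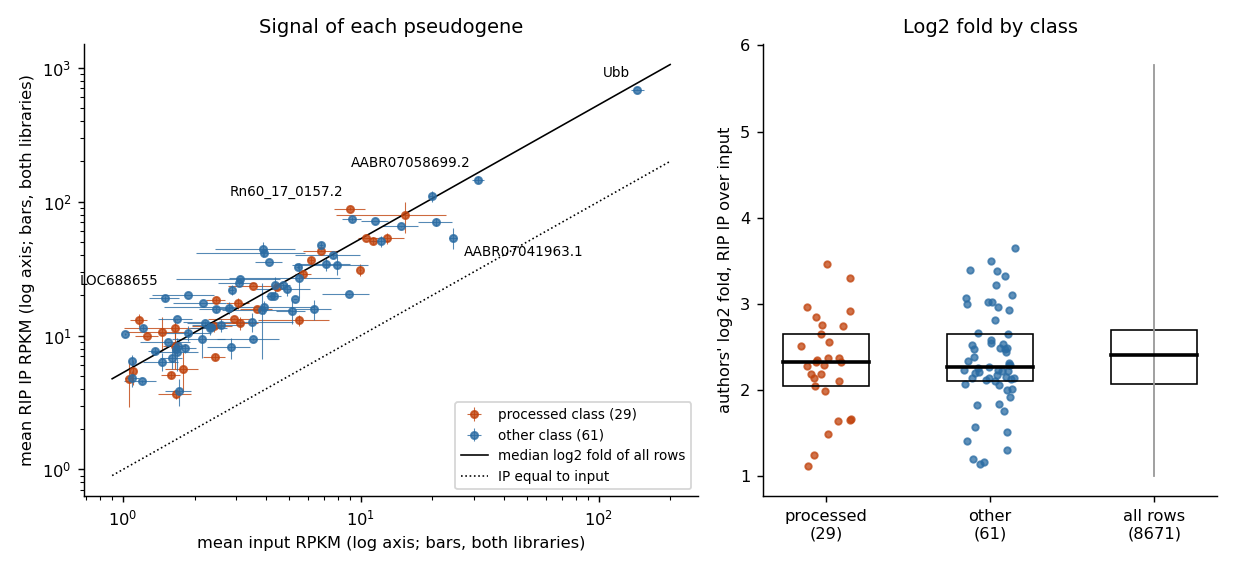
Left, mean RPKM of each of the 90 pseudogenes in the 2 RIP IP libraries (vertical, log axis) against the 2 input libraries (horizontal, log axis), with bars to the values of both libraries; right, the authors' log2 fold of the processed class (29), the other class (61) and all 8671 rows, with boxes for quartiles, thick lines for medians and, for all rows, a line for the range. Ubb lies alone at the top, and the classes overlap over nearly their whole range. AABR07041963.1 (log2 fold 1.14) lies above the line of equal IP and input but below the line for the median of all rows.

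The pseudogenes as a set sat slightly below the other listed genes. In the authors' deposited table their log2 folds spanned 1.12 to 3.65 with a median of 2.29, against a median of 2.40 over all rows and over the protein-coding rows. The median of all rows was exceeded by 35 of the 90 (38.9%). At the upper end, 12 of the 90 (13.3%) reached a log2 fold of at least 3, against 8.33% of all rows, and at the lower end 8 (8.89%) lay below 1.5, against 4.47% of all rows. Both shares were thus higher than in the whole table, but they rest on 12 and 8 genes. Several of the largest folds had few input reads, such as AABR07039541.1 with 7 and 9. At least 1 input library had under 20 reads for 30 of the 90 (33.3%), against 4.24% of all rows. The part of read number in the tails was not tested. Signal levels were ordinary: 42 of the 90 had a mean IP RPKM above the median of all rows, and the medians were 16.2 RPKM in the IP and 3.11 RPKM in the input for pseudogenes, against 17.8 and 3.35 RPKM for all rows.

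Processed and other pseudogenes differed little. The median log2 fold in the authors' deposited table was 2.33 in the processed class and 2.27 in the other class, a difference of 0.06. With pair 1 alone the difference was 0.04 and with pair 2 alone it was -0.03, so its sign was not the same in both pairs. Mean IP signal had a median of 13.4 RPKM in the processed class and 17.6 RPKM in the other class, and the quartiles overlapped (9.90 to 31.0 against 10.3 to 33.8 RPKM). Log2 folds of at least 3 were found for 2 of 29 processed and 10 of 61 other pseudogenes. Members are not replicates of a condition, so no test was made between the classes.

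The largest log2 fold, 3.65 in the authors' deposited table, belonged to LOC688655, annotated as similar to heat shock protein 8, the constitutive chaperone Hspa8. It had 18.2 and 19.9 RPKM in the IP libraries, against 1.29 and 1.72 RPKM in the input libraries, from 465 and 498 reads in the IP and 35 and 51 reads in the input. Its pair folds were 3.82 and 3.53 on the log2 scale, with intervals that overlapped, and both intervals lay above the median of all rows. Hspa8 itself has no row in the table.

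Fzd10, a Frizzled receptor for Wnt ligands, was the longest member at 3193 bases. It had 11.9 and 10.9 RPKM in the IP libraries, against 1.19 and 1.25 RPKM in the input libraries, and its pair folds were 3.32 and 3.13. Both its inputs lie just above the entry level of 1 RPKM, and it had 53 and 61 input reads. AABR07057678.1 had the most equal pairs among the high folds, at 3.34 and 3.32, with 10.4 and 10.1 RPKM in the IP libraries, against 1.03 and 1.02 RPKM in the input libraries.

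Rn60_17_0157.2, of the processed class, had 90.9 and 86.4 RPKM in the IP libraries, against 10.4 and 7.68 RPKM in the input libraries. AABR07068127.1 had 35.5 and 35.3 RPKM in the IP libraries, against 3.58 and 4.66 RPKM in the input libraries. These 2 genes rest on 447 to 550 reads in each IP library. The other 5 of the 10 largest folds rest on few input reads. AABR07039541.1 had 7 and 9 input reads, AABR07042821.1 had 7 and 14, and AABR07029573.1 had 6 and 18. AABR07044080.2 had 8 and 19 input reads and AC109096.1 had 21 and 8. In the last 3 of these the pair folds differed by more than 1 on the log2 scale, in AABR07044080.2 with 4.36 in pair 1 and 2.86 in pair 2.

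The 5 smallest folds lay in genes under 1000 bases, with 1 exception, but 61 of all 90 members (67.8%) were that short. Short genes were also among the largest folds, such as AABR07044080.2 (234 bases). AABR07003537.1, of the processed class, had 3.36 and 3.92 RPKM in the IP libraries, against 1.40 and 1.92 RPKM in the input libraries. Its log2 fold of 1.12 was the smallest, and its FDR of 0.0537 is the only one among the 90 above 0.05 in the authors' deposited table, whose entry rule used the p-value. AABR07041963.1 had 64.0 and 43.9 RPKM in the IP libraries, against 25.5 and 23.5 RPKM in the input libraries, so it was among the 10 strongest members in IP signal and the second lowest in fold. AABR07008016.1 had 20.01 and 20.6 RPKM in the IP libraries, against 10.9 and 6.88 RPKM in the input libraries. AABR07017110.1, listed as Tcea1l1, a relative of a transcription elongation factor gene, had 14.3 and 11.7 RPKM in the IP libraries, against 7.34 and 3.68 RPKM in the input libraries. The longer exception, AABR07030823.1 (1758 bases), had 4.76 and 2.99 RPKM in the IP libraries, against 1.51 and 1.93 RPKM in the input libraries. The counting intervals of both pair folds lay above 0 in all 5 genes.

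**Figure D2:**
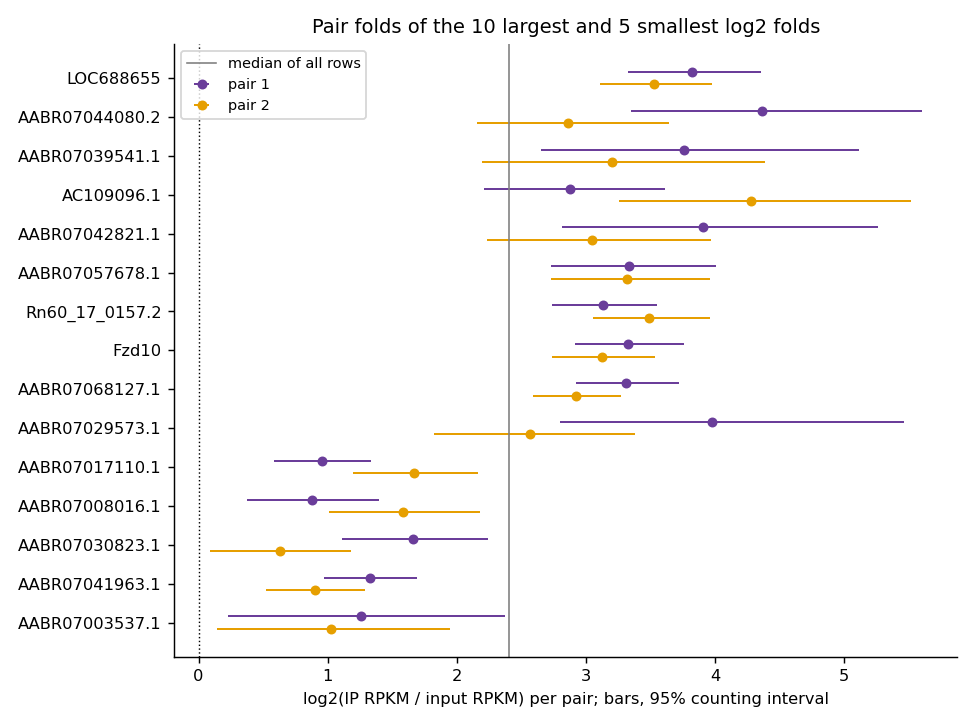
Log2 of IP over input RPKM in pair 1 and pair 2 (horizontal) for the 10 pseudogenes with the largest and the 5 with the smallest authors' log2 fold, in that order down the page, with exact 95% counting intervals. Intervals are wide where input reads are few, as for AABR07044080.2 (8 and 19 reads), and narrow for Rn60_17_0157.2 (58 and 47 reads); all lie above 0.

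Among the other strongly represented members, AABR07058699.2 had 137 and 156 RPKM in the IP libraries, against 29.3 and 33.0 RPKM in the input libraries. AABR07073038.1 had 121 and 100 RPKM in the IP libraries, against 19.4 and 20.4 RPKM in the input libraries. Zcchc18, an X-linked gene of the CCHC zinc finger family, had 72.0 and 71.2 RPKM in the IP libraries, against 12.99 and 9.97 RPKM in the input libraries. In all 3 the IP values were well clear of the input values and the pair folds lay between 2.22 and 2.84, around the median of all rows. AABR07004881.1 had 75.04 and 65.3 RPKM in the IP libraries, against 24.2 and 17.4 RPKM in the input libraries, and AC109958.1 had 64.9 and 65.5 RPKM, against 12.2 and 17.4 RPKM. AC095947.2 also ranked among the 10 strongest, but its recovered length is only 75 bases and it had no peak to check that against. Its 58.8 and 100 RPKM in the IP libraries rest on 58 and 97 reads, against 24 and 9 reads in the input libraries, and its pair folds were 1.36 and 3.67 with intervals that do not overlap. AABR07051947.1, among the strongest 15 of the other class, had 55.3 and 45.9 RPKM in the IP libraries. Its input values were 13.2 and 11.1 RPKM. Of the same 15, AC096239.2 had pair folds of 2.97 and 1.95, with 22 and 45 input reads. AABR07027212.1 had pair folds of 1.74 and 2.85, with 28 and 18 input reads.

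Many members were short and had few reads. Of the 90 pseudogenes, 61 (67.8%) were under 1000 bases long, against 12.5% of all rows, and the median length was 637 bases, against 2326 bases. In the processed class 25 of 29 were that short, and in the other class 36 of 61. At least 1 input library had under 20 reads for 30 of the 90 (33.3%), against 4.24% of all rows. The FDR exceeded 0.001 for 10 of the 90 (11.1%) in the authors' deposited table, against 1.18% of all rows.

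The pair folds of 16 of the 90 (17.8%) differed by more than 1 on the log2 scale, against 3.81% of all rows. In 8 of these pair 1 was higher and in 8 pair 2 was higher, and 11 of the 16 had an input library with under 20 reads. Among rows under 1000 bases the counts were 13 of 61 pseudogenes (21.3%) and 98 of 899 protein-coding rows (10.9%). By counting error, the intervals of the 2 pairs failed to overlap for 7 of the 90 (7.78%), against 13.7% of all rows, which have more reads. The widest gap was in AC118439.1, with 6.64 and 24.6 RPKM in the IP libraries, against 5.11 and 2.60 RPKM in the input libraries. It rests on 11 and 40 reads in the IP and 9 and 5 reads in the input, and its interval in pair 1 (-1.03 to 1.83) includes no change, the only such interval among the 90.

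The lower median fold was seen in the short members. Among rows under 1000 bases the median log2 fold in the authors' deposited table was 2.23 for 61 pseudogenes and 2.52 for 899 protein-coding rows. From 1000 to under 2000 bases it was 2.47 for 20 pseudogenes and 2.43 for 2481 protein-coding rows, and at 2000 bases or more it was 2.53 for 9 pseudogenes and 2.37 for 5040 protein-coding rows. The 20 and 9 longer members are few, and the part of length in the lower median was not tested.

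For 10 members the symbol or description names the gene they resemble, and 8 of these parents have a row. In 7 of the 8 the parent had the higher mean IP signal per length. The pair that was nearly equal was LOC108350502 and Rps2, a protein of the small ribosomal subunit. LOC108350502 had 45.6 and 49.8 RPKM in the IP libraries, against 6.92 and 6.68 RPKM in the input libraries. Rps2 had 47.5 and 45.2 RPKM in the IP libraries, against 4.38 and 6.45 RPKM in the input libraries. The IP values of the 2 genes overlap, while both input values of the copy lie above those of Rps2.

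The other 7 copies lay below their parents in all 4 libraries. RGD1560015 resembles Tecr, an enzyme of very long chain fatty acid elongation, and had 77.0 and 72.3 RPKM in the IP libraries, against 10.02 and 8.35 RPKM in the input libraries. Tecr had 710 and 698 RPKM in the IP libraries, against 76.0 and 86.9 RPKM in the input libraries. The copy thus had 0.106 of its parent's mean IP signal and 0.113 of its mean input signal. Ratios to the parent were also alike in IP and input for LOC688754 and Vdac1, a channel of the outer mitochondrial membrane (0.135 and 0.133), and for LOC100361008 and Cox5a, a subunit of cytochrome c oxidase (0.344 and 0.337). For LOC100360791 and Tpt1, which encodes the translationally controlled tumour protein, they were 0.0487 in the IP and 0.0408 in the input.

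In the other 3 pairs the ratio was lower in the IP than in the input, by more than for RGD1560015 and Tecr. The ratio of LOC108350502 to Rps2 was also lower in the IP (1.03) than in the input (1.26). LOC100364062 and Pkm, the pyruvate kinase of glycolysis, had ratios of 0.0397 in the IP and 0.0564 in the input. LOC100363537 and Rpl10a, of the large ribosomal subunit, had 0.2203 in the IP and 0.312 in the input. Arrb2-ps and Arrb2, the beta-arrestin that desensitises G protein-coupled receptors, had 0.326 in the IP and 0.485 in the input. Arrb2-ps itself had 5.32 and 4.81 RPKM in the IP libraries, against 1.45 and 1.73 RPKM in the input libraries.

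Set beside its parent, the log2 fold in the authors' deposited table was lower in 5 copies and higher in 3, but the sign was the same in both pairs for only 3 of the 8. These 3 were LOC100364062 (-0.53 in pair 1 and -0.46 in pair 2 against Pkm), LOC100363537 (-0.21 and -0.81 against Rpl10a) and Arrb2-ps (-0.36 and -0.78 against Arrb2), all lower. Input reads were few, 11 and 12 for LOC100363537 and 13 and 17 for Arrb2-ps. For these copies the counting intervals of both pair folds include the parent's pair fold. The interval of LOC100364062 includes that of Pkm in pair 1 (1.91 to 2.95, against 2.94) but not in pair 2 (1.79 to 2.64, against 2.66). Since reads may be shared between a copy and its parent, the levels of the members of each pair are not independent. Hmgb1-ps4, a copy of the gene for the chromatin protein Hmgb1, which has no row, had 14.9996 and 16.4 RPKM in the IP libraries, against 2.09 and 2.82 RPKM in the input libraries. By the family of the named gene, ribosomal proteins had 2 members, while glycolysis, oxidative phosphorylation, chromatin proteins, chaperones, ubiquitin and receptors had 1 each.

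**Figure D3:**
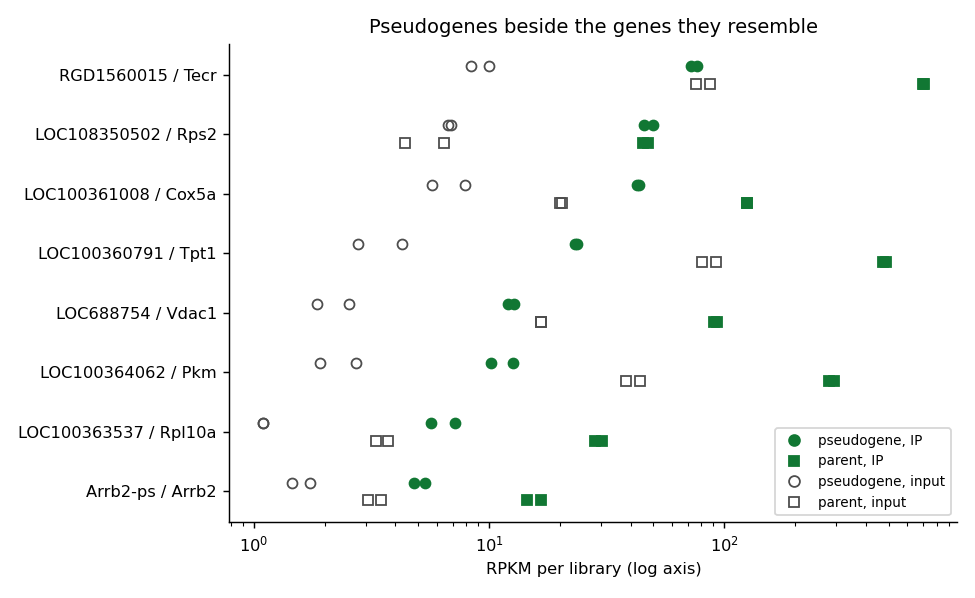
RPKM in each RIP library (log axis) of 8 pseudogenes (circles) and the genes they resemble (squares), with IP filled and input open. The parent lies to the right of its copy in both IP libraries except for LOC108350502 and Rps2, which overlap near 45 to 50 RPKM.

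The ac4C lists held few pseudogene peaks outside the first CIBP list. All deposited peaks on pseudogenes numbered 91, 7 and 4 in the 3 CIBP lists and 4, 4 and 5 in the 3 control lists. They lay on 62, 7 and 4 pseudogenes in CIBP and on 4, 3 and 5 in controls. Only the first CIBP list stood apart. That list held 50417 peaks, against 1173 to 2416 in the other 5 lists, and 83 of its 91 pseudogene peaks shared a fold enrichment of 10.6 and an FDR of 0.0562. Fold enrichment is the authors' ratio of IP over input for a peak. In 17 pseudogenes such a peak was as long as the whole gene.

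Neither number differed between the groups beyond the spread of the lists. A two-sided exact permutation test on log2(number + 1), in which 3 against 3 cannot go below 0.10, gave p = 0.4 for peaks (0.5 adjusted over the 3 measures) and p = 0.3 for pseudogenes (0.5 adjusted). The difference of means, CIBP minus control, was 1.54 for peaks and 1.46 for pseudogenes on that scale, and without the first CIBP list it was 0.25 and 0.36. As a share of the peaks on listed genes, pseudogene peaks made up 0.460%, 0.331% and 0.421% in CIBP and 0.400%, 0.254% and 0.400% in controls. The means were 0.404% ± 0.066 in CIBP and 0.351% ± 0.084 in controls (SD, n = 3 lists each), and the exact permutation test gave p = 0.5.

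With peaks limited to an FDR of at most 0.05, the first CIBP list no longer stood apart. There were then 5, 4 and 3 pseudogene peaks in CIBP and 4, 2 and 4 in controls, on 4, 4 and 3 and on 4, 2 and 4 pseudogenes. The exact permutation test gave p = 0.7 for peaks and p = 1 for pseudogenes (1 adjusted over the 3 measures for both). With 3 lists a side these tests cannot reach 0.05 at any size of difference, so they do not show that the groups were alike.

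**Figure D4:**
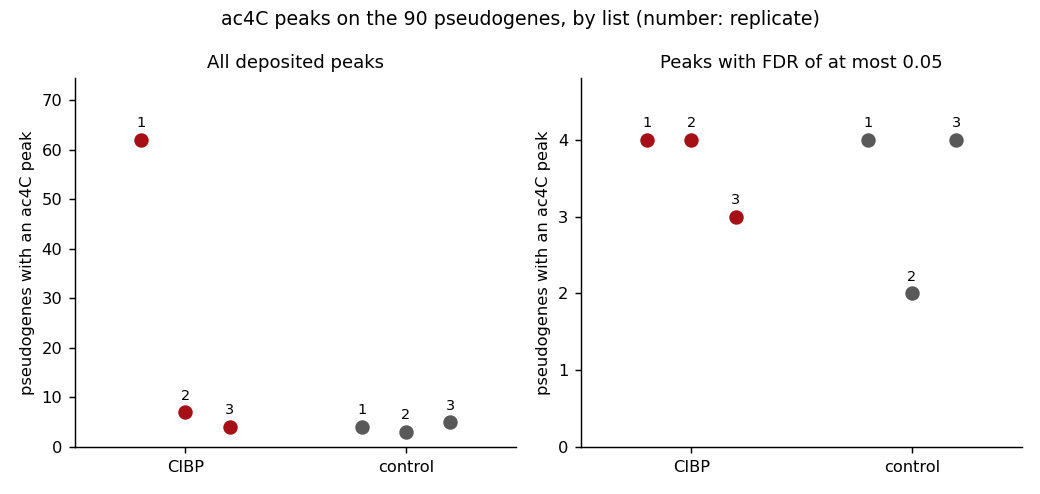
Number of the 90 pseudogenes with an ac4C peak in each list (points, numbered by replicate), CIBP left of control, for all deposited peaks (left) and for peaks with an FDR of at most 0.05 (right). CIBP replicate 1 stands at 62 with all peaks and at 4 with the limit, within the range of 2 to 4 of the other lists.

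Counted over all lists, 67 of the 90 pseudogenes (74.4%) had a deposited peak, against 90.4% of all rows, and 50 of these had peaks in the first CIBP list alone. In the other 5 lists 17 (18.9%) had a peak, against 45.0% of all rows. At the FDR limit 19 of the 90 (21.1%) had a peak, against 36.8% of all rows; 5 were of the processed and 14 of the other class. Of the 19, 9 had peaks in CIBP lists alone (10%, against 14.1% of all rows), 9 in control lists alone (10%, against 13.7%) and 1 in both.

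Recurrence in CIBP lists alone was below the share of all rows as deposited, and rested on 1 gene at the FDR limit. A peak in at least 2 CIBP lists and no control list was found for 3 of the 90 as deposited (3.33%, against 11.3% of all rows). At the FDR limit it was found for 1 (1.11%, against 1.8%). The reverse pattern, at least 2 control lists and no CIBP list, was found for 0 of the 90 under both rules, against 0.738% of all rows as deposited and 1.71% at the FDR limit. With shares that small, a count of 0 among 90 does not set the pseudogenes apart. A peak at the FDR limit in any 2 lists was found for 2 of the 90 (2.22%), Ubb and AABR07073038.1, against 12.6% of all rows.

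Gene length went with the presence of peaks. Under 1000 bases, 6 of 61 pseudogenes (9.84%) and 166 of 899 protein-coding rows (18.5%) had a peak at the FDR limit. From 1000 to under 2000 bases the counts were 6 of 20 (30%) and 649 of 2481 (26.2%). At 2000 bases or more they were 7 of 9 (77.8%) and 2334 of 5040 (46.3%). With all deposited peaks the shares under 1000 bases were nearly equal, 41 of 61 (67.2%) and 602 of 899 (67.0%). At the FDR limit the share over all lengths was thus lower in pseudogenes, while by length class it was lower under 1000 bases and higher in the 2 longer classes, which hold few pseudogenes.

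**Figure D5:**
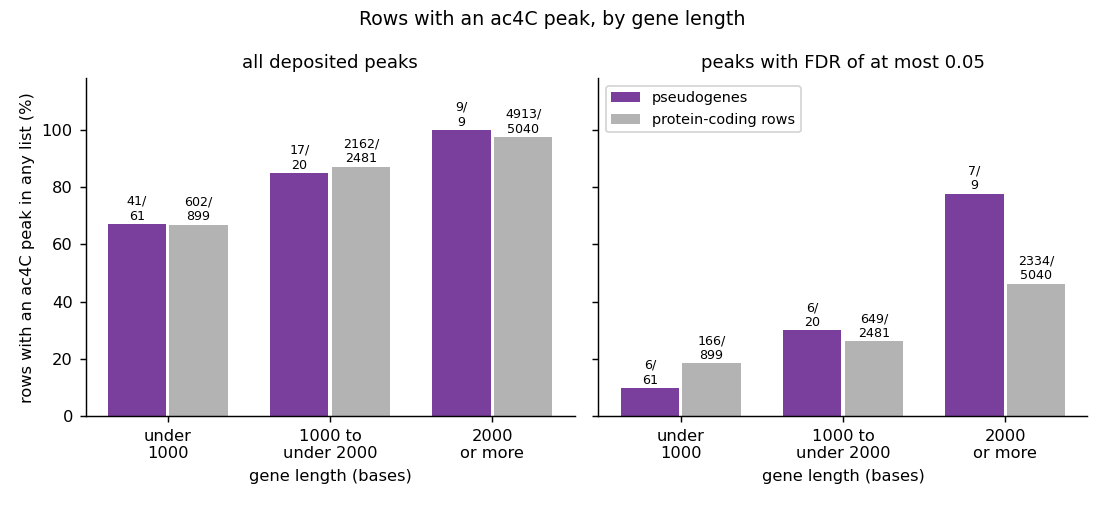
Share of rows with an ac4C peak in any of the 6 lists (bars, %) by gene length, pseudogenes left of protein-coding rows, for all deposited peaks (left) and for peaks with an FDR of at most 0.05 (right); numbers give rows with a peak over rows. Shares rise with length in both kinds of row.

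Ubb had its peaks in CIBP alone. At the FDR limit they lay at chr10:48881049-48881381 in CIBP list 1, with a fold enrichment of 10.6, and at chr10:48881232-48881381 in CIBP list 2, with 6.82 (both on the plus strand; positions throughout are those of rn6). The second lies within the first and both end at the same base, with a shared genomic span of 150 bases. No control list and not CIBP list 3 held a Ubb peak. AABR07073038.1 had a peak over exactly the same segment in both groups, chr4:118328274-118328452 (minus strand), with a fold enrichment of 13.1 in CIBP list 2 and 3.53 in control list 3.

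The other CIBP peaks at the FDR limit included genes now listed as protein-coding. Gprin1, which promotes the outgrowth of neurites, had 2 peaks in CIBP list 1, at chr17:10411273-10411660 and chr17:10411899-10412554 (plus strand), with folds of 95.2 and 31.7. Sephs2, which makes the selenium donor for selenoproteins, had a peak in CIBP list 1 at chr1:198720199-198720466 (minus strand) with a fold of 68.8. Fam127b, a gene derived from a retrotransposon, had a peak in CIBP list 3 at chrX:73617378-73617584 (plus strand) with a fold of 124. Zcchc18 had a peak in CIBP list 2 at chrX:107634783-107634932 (plus strand) with a fold of 2.90. Each of these 4 genes had its peak at the limit in a single list.

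In the RIP the first 3 of these genes had widely different signal, below the median of all rows for Gprin1 and Sephs2 and above it for Fam127b. Gprin1 had 5.41 and 7.36 RPKM in the IP libraries, against 1.70 and 1.22 RPKM in the input libraries. Sephs2 had 17.9 and 14.5 RPKM in the IP libraries, against 2.57 and 3.03 RPKM in the input libraries. Fam127b had 54.2 and 48.0 RPKM in the IP libraries, against 10.8 and 11.7 RPKM in the input libraries. The pair folds of these 3 lay between 1.67 and 2.80, on both sides of the median of all rows, and for Gprin1 the intervals of the pairs do not overlap.

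Among CIBP peaks on copies, LOC100363537, the copy of Rpl10a, had one in CIBP list 3 at chr4:6029413-6029585 (plus strand) with a fold of 22.1. Rpl10a itself had no peak in any list. AABR07005549.1 had the highest fold of any CIBP pseudogene peak, 220, in CIBP list 2 at chr1:186641070-186641305 (minus strand). Rn50_X_0749.3 had a peak in CIBP list 1 at chrX:73998447-73998623 (minus strand) with a fold of 32.4, and AABR07017110.1 had one in CIBP list 3 at chr15:11650740-11650915 (plus strand) with a fold of 8.83.

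Control lists held the highest fold of all. AABR07007385.1, a 288-base gene of the other class, had a peak in control list 1 at chr2:11885754-11885930 (plus strand) with a fold of 327, although it had only 9.24 and 9.67 RPKM in the RIP IP libraries, against 2.48 and 4.54 RPKM in the input libraries. A peak of the recurrent kind in CIBP list 1 covered the whole gene and with it that genomic span of 177 bases. AABR07006310.1 had a peak in control list 3 at chr1:228725078-228725286 (plus strand) with a fold of 123. AABR07042077.1, in control list 1, and AABR07041140.1, in control list 3, had folds of 72.1 and 67.0 on chromosome X. LOC688655, the member with the largest RIP fold, had a control peak in list 3 at chr6:34554499-34554648 (minus strand) with a fold of 16.7, and a CIBP list 2 peak above the FDR limit shared 61 bases with it. The other control peaks at the limit lay on AABR07043421.1 (16.0) and AABR07067267.1 (13.4) in list 1 and on AABR07001064.1 (19.6) and AABR07054189.1 (2.04) in list 2.

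A larger share of the pseudogenes with peaks than of all rows with peaks lay on chromosome X. Of the 67 with a deposited peak, whose chromosome the peak lists give, 11 (16.4%) were X-linked, against 269 of 7836 rows with a peak (3.43%). The share was 6 of 23 in the processed class and 5 of 44 in the other class. At the FDR limit it was 5 of 19 (26.3%), against 110 of 3195 rows (3.44%). The 5 were Fam127b, Rn50_X_0749.3 and Zcchc18 in CIBP lists and AABR07041140.1 and AABR07042077.1 in control lists, so X-linked members occurred in both groups; the difference in share was not tested. The 23 pseudogenes without a peak have no position in the files and are not counted here. Among these 23, Rn50_X_0744.1 and Rn50_X_0747.1 carry an X in their clone-based names, as does the X-linked Rn50_X_0749.3.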

How the data were processed

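The members and lists were chosen with earlier results of these data known. The submitters' processing notes list build rn6 and the tools DESeq2, featureCounts 1.6.3, HOMER 4.10.4, HISAT2 2.1.0 and cutadapt 2.5, without roles and without naming the peak caller. The deposited RIP table gave 4 signals per gene with no stated unit, the authors' log2 fold and their p-value and FDR. Its signals were identified as RPKM, deposited by the authors, from the values: for all 8671 rows, 1 gene length gave whole reads in all 4 libraries (tolerance 2e-05), and the library totals came out whole. Lengths were the smallest that fit, multiplied for 45 rows (3 pseudogenes) to hold their widest peak; whether a read is a fragment is unknown. The deposited peak lists gave for each peak a fold enrichment (a ratio), a p-value and a score, the log10 of the FDR, all by the authors, with 1 list per IP and input pair. Depth behind the peaks is unknown.

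Because the table holds only rows past the authors' limits, no count test was run; log2 folds per pair were computed from RPKM, with exact 95% counting intervals from the recovered reads (scipy 1.17.1, pandas 2.3.3). Intervals cover counting error only. Peak numbers were compared by two-sided exact permutation tests over lists. Their p-values give the share of relabellings of the lists with a difference at least as large. Whether the spread between lists is that between single rats is unknown. The steps were tested on simulated data. Named were the 10 highest in mean IP, the 10 largest and 5 smallest log2 folds, the 5 smallest FDR values, 15 of the 19 with a peak at the FDR limit (the other 4 were added, since the count was given), copies with a listed parent and the strongest 15 of the other class; AC118439.1, Ado and the remaining RefSeq matches were named after their values were seen. Alternatives were single pairs, a pseudocount of 1, limits on FDR, fold and input signal, left-out lists and a replicate block. No sequence of a pseudogene is in the files or tables used, so none is shown.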

Additional observations from a re-analysis of the deposited data

How the results depend on the processing

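Every alternative kept CIBP above control in all 3 peak measures, but 3 lists a side cannot pass 0.05 in any of them, so the p-values say nothing of stability. With the FDR limit the difference was 0.23 for peaks, 0.14 for pseudogenes and 0.07 percentage points for the share, and peaks with a fold above 20 gave 0.67. Leaving out 1 list at a time gave differences of 0.25 to 2.35 for the number of peaks, 0.36 to 2.19 for the number of pseudogenes and 0.0043 to 0.0893 percentage points for the share, with exact permutation p between 0.1 and 1; the lowest difference in the 2 numbers came without CIBP replicate 1, and the highest without CIBP replicate 3. With a replicate block (paired sign flips, smallest possible p 0.25) the differences stayed 1.54, 1.46 and 0.05 by construction. The exact sign-flip p was 0.5, 0.5 and 0.25. Same-numbered CIBP and control lists showed correlations of -0.009 to 0.004, and differently numbered lists -0.016 to 0.023. No combination of lists showed a clear correlation, so this measure cannot tell whether same-numbered lists were paired. The median log2 fold of pseudogenes (2.29, against 2.40 over all rows) was 2.41 in pair 1 alone, against 2.45 over all rows. With a pseudocount of 1, which shrinks every low row, it was 1.98, against 2.08 over all rows. The median of pseudogenes thus stayed below that of all rows in both settings. The difference between processed and other pseudogenes (0.06) reversed to -0.028 in pair 2 alone, and moved to 0.11 with a pseudocount of 1 and 0.12 with rows at or above the median input signal; the cause was not tested. Chosen after seeing the data, the median was 2.28 without the 9 members RefSeq lists as protein-coding and 2.31 with at least 20 reads in each input library, and the class difference was 0.05 in both. Depth limits the 30 members with under 20 reads in an input library.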
